A study of Mus musculus with 9 samples.

Results

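The antioxidant and NRF2 target genes described here are 49 genes of the cell's defense against oxidants, followed in the tibialis anterior muscle of mice given dexamethasone (DEX), with or without turmeric extract (TE) in the diet. A gene was a member if its symbol was on this list and was the only symbol that the array annotation gave to a probe set, a group of short probes for the transcripts of a gene. Where a gene had several such probe sets, the one with the highest mean log2 signal over the 9 arrays was used. By this rule 44 of the 49 genes were found, among 18193 genes with a probe set of their own. Prdx1 and Ftl1 were only on probe sets with several symbols, no probe set carried the symbols Prdx5, Prdx6 or G6pdx, and these 5 genes were not analysed here. Gsta3, a glutathione transferase, stayed under a mean signal of 50 in each group, with 16, 54.9 and 31.3 in the DEX + TE group, 3.92, 47.4 and 50.6 in the DEX group and 13.8, 13.7 and 69.9 in the control group, and was not tested. The other 43 members were among the 13662 genes tested, for which 1 or more of the group means (of log2 signals) was 50 or more on the signal scale.

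The arrays were Affymetrix GeneChips, 1 for each of 9 mice, with 3 mice per group. All mice were male C57BL/6J, 15 weeks old at the start. The DEX + TE mice ate an AIN93-based diet with 2% TE and, from 5 d later, received 5 mg/kg DEX into the abdomen daily for 7 d. The DEX mice received the same injections on the diet without TE, and the control mice saline on that diet. The labels of the DEX + TE samples place turmeric after DEX, whereas the growth protocol and the methods place the start of the diet before it. No group received TE without DEX, so an effect of TE on unstressed muscle was not measured. The methods describe TE as a water extract low in curcuminoids, and the mice on the arrays as those whose body and muscle weights were near the average.

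NRF2, encoded by Nfe2l2, is a transcription factor that KEAP1 holds in the cytoplasm and marks for degradation. Oxidants and electrophiles modify KEAP1, so that NRF2 collects in the nucleus and, paired with small MAF proteins, binds antioxidant response elements (ARE) near genes for glutathione synthesis, thioredoxin recycling, detoxification, iron storage and NADPH supply. Because this switch acts on the NRF2 protein, the mRNA of Nfe2l2 itself need not follow it. Curcuminoids of turmeric have been described as NRF2 activators, and glucocorticoids such as DEX act through a receptor that binds glucocorticoid response elements (GRE). Skeletal muscle forms oxidants in its mitochondria and at its membranes.

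The ARE core, TGACNNNGC on either strand, was searched in RefSeq promoter windows of 300 bases (GRCm38.p6). A window ran from 250 bases before to 50 bases after a start of the gene, and some genes had several windows. A window was at hand for 43 of the 49 members. The core occurred in 11 of these 43 members (25.6%), against 3781 of the 27025 genes of the table (14%). A gene counted if any of its windows held a match, so genes with more windows could match more often. The shares of this and the other motifs were not adjusted for the number of windows. An ARE with letters other than TGACNNNGC was not searched. The stretches of the 8 members that were also tested on the arrays are shown, 5′ to 3′ and with the core in capitals, because these genes match the letters searched. They include the regulator Nfe2l2, the glutathione synthesis subunit Gclm, the thioredoxin system genes Srxn1 and Txnrd1, and Pgd, a source of NADPH. Txnrd1, Mgst1 and Pgd had several windows, and the core lay in only 1 window of each. In Srxn1 and Pgd the core lay after the start, at base 29 and base 4.
Nfe2l2, chr2:75704885-75704913, minus strand: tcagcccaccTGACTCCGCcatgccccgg
Gclm, chr3:122245413-122245441, minus strand: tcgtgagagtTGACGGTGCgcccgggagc
Srxn1, chr2:152105542-152105570, minus strand: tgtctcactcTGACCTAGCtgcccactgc
Txnrd1, chr10:82859104-82859132, minus strand: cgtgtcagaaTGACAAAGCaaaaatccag
Sod1, chr16:90220696-90220724, minus strand: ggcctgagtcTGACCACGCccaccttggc
Gstm5, chr3:107895802-107895830, plus strand: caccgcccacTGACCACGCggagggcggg
Mgst1, chr6:138140461-138140489, minus strand: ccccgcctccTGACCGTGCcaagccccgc
Pgd, chr4:149166061-149166089, minus strand: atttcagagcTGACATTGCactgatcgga
Sod1 and Gstm5 shared the same core letters, TGACCACGC, and the other 6 cores occurred in 1 of these members each. The AP-1 site TGANTCA, which resembles the ARE core, lay in a window of 6 of the 43 members (14%), against 8.97% of all genes, and overlapped an ARE core in Prdx1 only. A match to these letters is a description of the window and not evidence of binding.

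None of the 43 members passed the test in any comparison. A gene was called where the adjusted p of limma, fitted to all 9 arrays and adjusted by Benjamini-Hochberg over 29269 probe sets, was under 0.05 and the absolute log2 fold change was 0.6 or more. In DEX over control, 0 of 43 members were called, against 0.6% of all genes tested. In DEX + TE over DEX, 0 of 43 were called, against 0.00732%, and in DEX + TE over control 0 of 43, against 0.454%. Rank Product, the test named in the methods, also called 0 members in each comparison. Its share over all genes is not given here, so these counts have no background beside them. Values of single members are therefore given as differences that did not pass the test. Each array is a separate mouse according to the labels, and the smallest p that an exact two-sided permutation of 3 against 3 arrays can give is 0.1.

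At an unadjusted limma p under 0.05, members stood close to the share of all genes. In DEX over control 4 members were higher (9.3%, against 6.16% of all genes) and 5 were lower (11.6%, against 9.15%). In DEX + TE over DEX 2 were higher (4.65%, against 5.96%) and 0 were lower (against 1.49%). In DEX + TE over control 5 were higher (11.6%, against 7.64%) and 2 were lower (4.65%, against 6.78%). The median log2 fold change of the members was −0.01 in DEX over control, where that of all genes was −0.03. It was −0.05 in DEX + TE over DEX (all genes 0.04) and −0.05 in DEX + TE over control (all genes 0.02). By their medians, the members as a group therefore lay within 0.1 log2 units of all genes in each comparison.

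The arrays of a group did not overlap with those of the other group for 6 members that were higher in DEX than in control (14.0%, against 9.66% of all genes) and 8 that were lower (18.6%, against 13.6%). In DEX + TE over DEX 2 were higher (4.65%, against 9.73%) and 5 lower (11.6%, against 5.27%). In DEX + TE over control 5 were higher (11.6%, against 12.4%) and 11 lower (25.6%, against 12.3%). The 11 members lower in every DEX + TE mouse than in every control mouse were Nfe2l1, Gss, Glrx, Sod1, Sod2, Gpx1, Prdx2, Prdx3, Gsta4, Gstp1 and Aox1, at log2 fold changes between −0.16 and −0.64. Of these 11, only Sod2 and Gsta4 had an unadjusted limma p under 0.05.

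**Figure D1:**
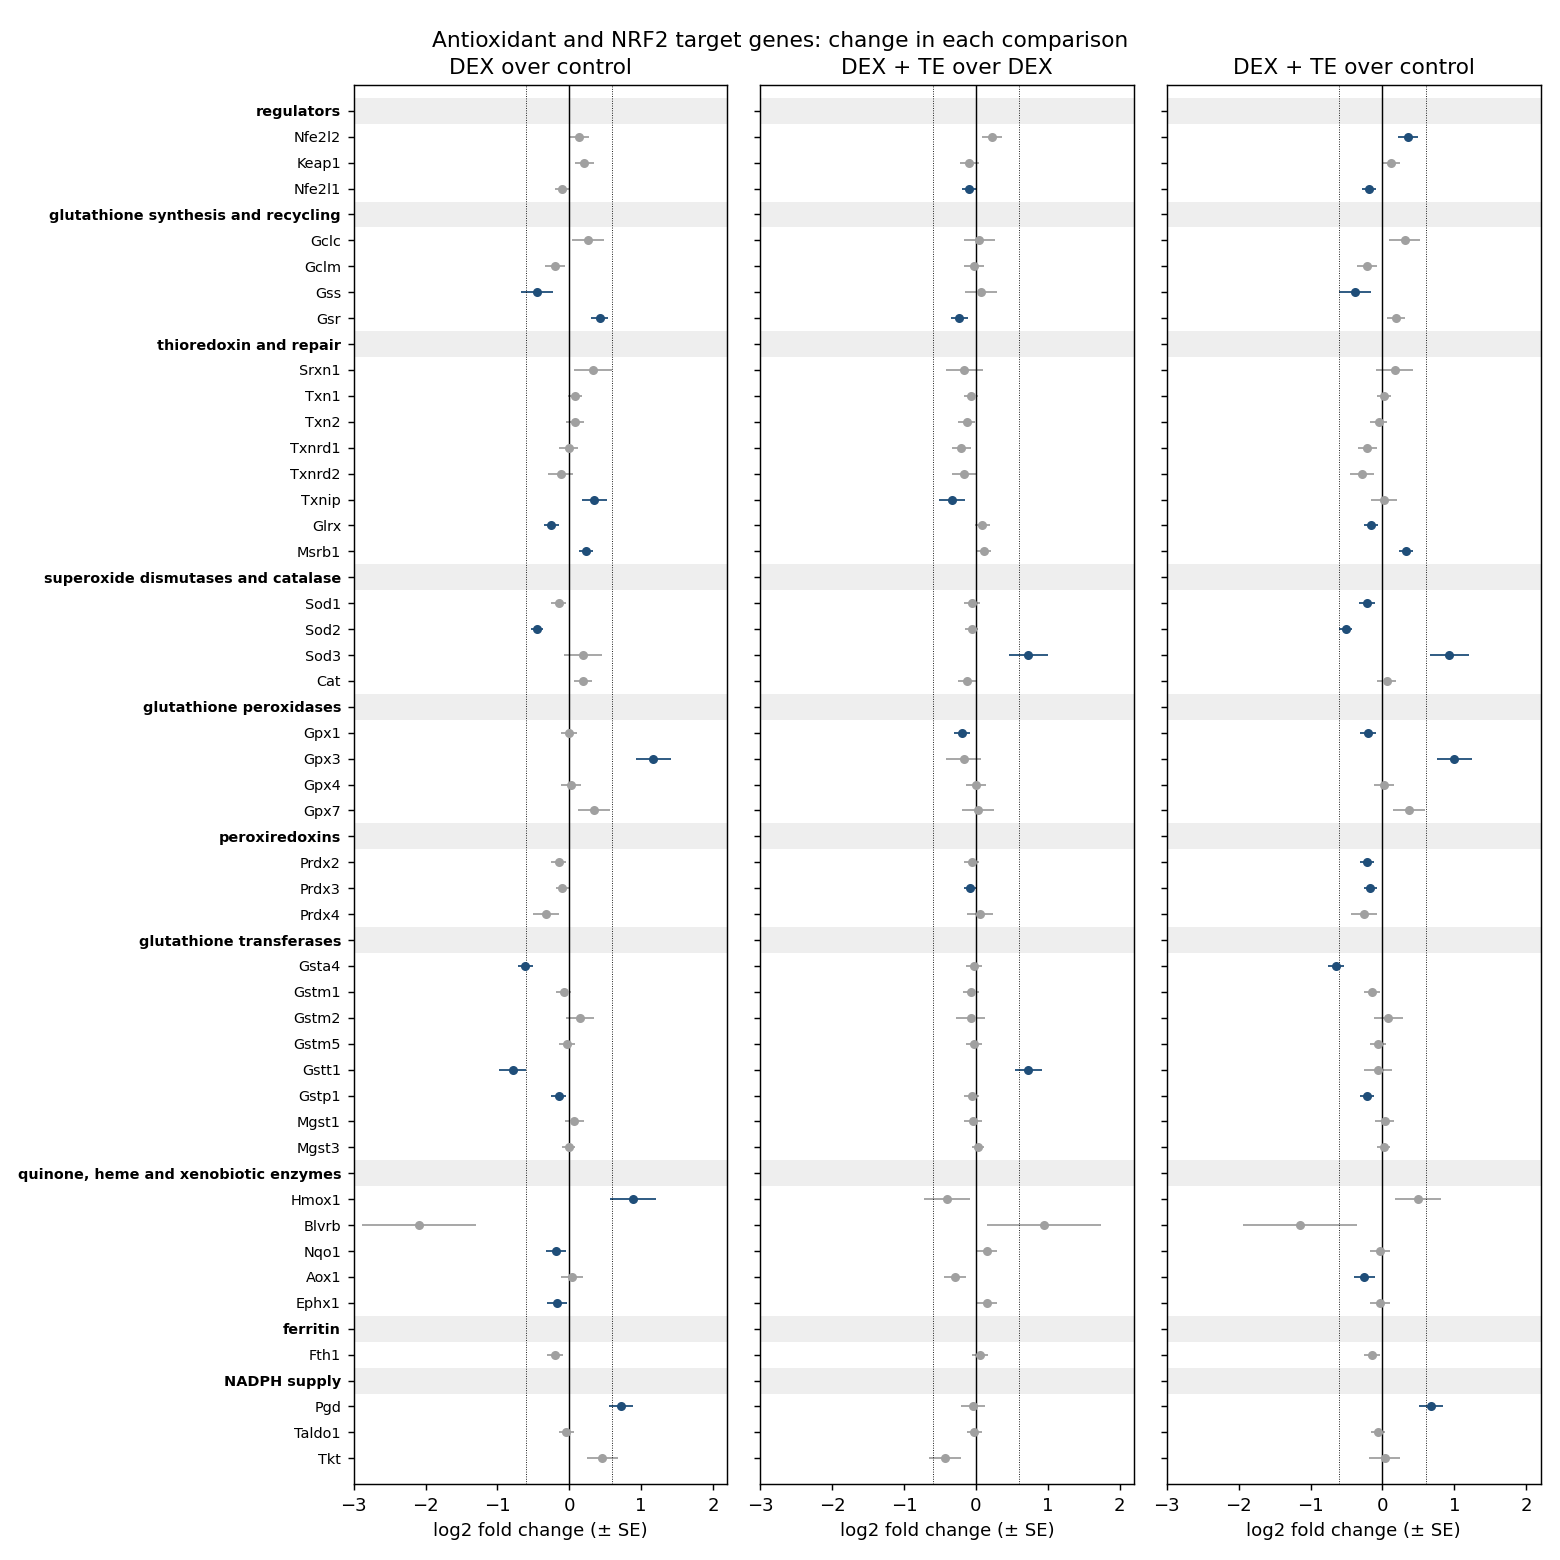
Log2 fold change ± SE (limma, 3 arrays per group) of the 43 tested members, by role, in DEX over control, DEX + TE over DEX and DEX + TE over control. Dark points mark members whose arrays did not overlap between the groups, dotted lines mark a log2 fold change of 0.6 in either direction, and 0 of 43 members were called in any panel.

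The regulators showed small differences. Nfe2l2 had signals of 3249, 3643 and 3107 in the DEX + TE group, 2548, 3418 and 2652 in the DEX group and 2570, 2681 and 2547 in the control group. Every DEX + TE array lay above every control array, whereas 1 DEX array lay among the DEX + TE arrays. The log2 fold change was 0.36 ± 0.14 (SE) in DEX + TE over control (limma adjusted p = 0.318), 0.22 ± 0.14 in DEX + TE over DEX (adjusted p = 0.734) and 0.13 ± 0.14 in DEX over control (adjusted p = 0.698). The DEX + TE over DEX value was −0.03 once each array was centred on its median, a scaling that lowered the median of all genes in that comparison to −0.22. Keap1, the inhibitor, had signals of 1590, 1880 and 1842 in the DEX + TE group, 2089, 1828 and 1737 in the DEX group and 1640, 1456 and 1788 in the control group. The 3 groups overlapped, and the log2 fold change was 0.21 ± 0.13 in DEX over control (limma adjusted p = 0.5), −0.09 ± 0.13 in DEX + TE over DEX and 0.12 ± 0.13 in DEX + TE over control. Nfe2l1, a related factor that controls proteasome genes, differed by −0.10, −0.09 and −0.19 in the same order of comparisons.

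Of the other regulators of NRF2, a list of 14 genes with partners, competitors and ligase parts, 13 were tested and 0 were called in any comparison. Mafk, a small MAF partner, had signals of 986, 1054 and 1081 in the DEX + TE group, 825, 1497 and 1056 in the DEX group and 693, 697 and 758 in the control group. Its log2 fold change in DEX over control was 0.61 (limma adjusted p = 0.238), and that of Maff, another small MAF gene, was 0.98 (adjusted p = 0.391). Bach2, of a family that competes for the ARE, had −0.45 (adjusted p = 0.763) with overlapping arrays.

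Genes widely read as NRF2 activity gave no joint direction. Nqo1, a quinone reductase, had signals of 533, 641 and 487 in the DEX + TE group, 495, 484 and 496 in the DEX group and 648, 535 and 508 in the control group. The DEX arrays lay closely together and below all control arrays, and the DEX + TE arrays spread over both. On the log2 scale the difference was −0.19 ± 0.14 in DEX over control (limma adjusted p = 0.581) and 0.16 ± 0.14 in DEX + TE over DEX (adjusted p = 0.814). The 95% confidence interval of the DEX + TE over DEX value was −0.16 to 0.49, so that a log2 rise of more than 0.49 in Nqo1 lay outside the interval. Centring the arrays turned this value to −0.09.

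Gclc and Gclm encode the catalytic and the modifier subunit of glutamate-cysteine ligase, the first step of glutathione synthesis. Gclc had signals of 561, 824 and 500 in the DEX + TE group, 725, 595 and 482 in the DEX group and 513, 498 and 479 in the control group. Its arrays overlapped in each comparison, and the DEX + TE over DEX value was 0.05 with an interval of −0.46 to 0.56. Gclm had signals of 767, 961 and 783 in the DEX + TE group, 948, 749 and 855 in the DEX group and 963, 922 and 1033 in the control group. For Gclm the DEX + TE over DEX value was −0.02 with an interval of −0.34 to 0.29, and the DEX over control value was −0.20, against 0.26 for Gclc. The 2 subunits thus differed in sign in DEX over control, with both intervals holding 0.

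Gss, which joins glycine to complete glutathione, had 204, 156 and 204 in the DEX + TE group, 129, 191 and 228 in the DEX group and 237, 230 and 262 in the control group, at −0.45 ± 0.22 in DEX over control (limma adjusted p = 0.405). Gsr, glutathione reductase, which regenerates reduced glutathione with NADPH, had 1020, 1114 and 955 in the DEX + TE group, 1283, 1192 and 1150 in the DEX group and 808, 899 and 1004 in the control group. All DEX arrays of Gsr lay above those of both other groups. Its log2 fold change was 0.42 ± 0.12 in DEX over control (limma adjusted p = 0.175) and −0.23 ± 0.12 in DEX + TE over DEX (adjusted p = 0.697). The other tested probe set of Gsr gave −0.01 in DEX over control, so the 2 probe sets of Gsr disagreed.

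Srxn1, sulfiredoxin, which repairs overoxidized peroxiredoxins, had signals of 365, 678 and 453 in the DEX + TE group, 529, 429 and 692 in the DEX group and 388, 431 and 472 in the control group. The spread within both DEX groups was wider than in the control group, and the arrays overlapped. Its log2 fold change was 0.33 ± 0.26 in DEX over control (limma adjusted p = 0.603) and −0.16 in DEX + TE over DEX, with an interval of −0.77 to 0.45. Of its 4 probe sets 3 gave positive values in DEX over control, and the other, dim on some arrays, gave −1.08.

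Txnrd1, cytosolic thioredoxin reductase, had 1816, 2010 and 1630 in the DEX + TE group, 2246, 1821 and 2206 in the DEX group and 1986, 2025 and 2266 in the control group. The arrays of the 3 groups overlapped. In log2 units the gene differed by −0.01 ± 0.13 in DEX over control and −0.20 ± 0.13 in DEX + TE over DEX, with an interval of −0.51 to 0.11, and the 3 probe sets of the gene did not have the same sign. The cytosolic thioredoxin Txn1 and the mitochondrial Txn2 and Txnrd2 stayed between −0.12 and 0.08 in DEX over control.

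Txnip, which binds and inhibits thioredoxin, had signals of 11618, 9422 and 13249 in the DEX + TE group, 13728, 13820 and 15172 in the DEX group and 9239, 11246 and 13396 in the control group. Each DEX array was higher than every array of the other groups. For this gene the log2 fold change was 0.35 ± 0.18 in DEX over control (limma adjusted p = 0.418) and −0.33 ± 0.18 in DEX + TE over DEX (adjusted p = 0.702), and its other probe set gave 0.20 and −0.47 in these comparisons. Glrx, glutaredoxin, had −0.25 ± 0.10 and Msrb1, a selenium-dependent methionine sulfoxide reductase, 0.23 ± 0.10 in DEX over control. Msrb1 had 0.33 ± 0.10 in DEX + TE over control (limma adjusted p = 0.231), with all DEX + TE arrays above all control arrays.

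Among the enzymes that remove superoxide and peroxide, Sod2 and Gpx3 differed most in DEX over control, and in opposite directions. Sod2, the mitochondrial superoxide dismutase, had signals of 11744, 11429 and 11228 in the DEX + TE group, 12653, 11740 and 11574 in the DEX group and 15728, 16791 and 16619 in the control group. All 6 DEX-injected mice lay below all 3 control mice. The log2 fold change was −0.51 ± 0.09 in DEX + TE over control (limma adjusted p = 0.0731) and −0.45 ± 0.09 in DEX over control (adjusted p = 0.088), both smaller in size than the 0.6 that a call needs. All 4 probe sets of Sod2 were negative in both comparisons, between −0.13 and −0.45 in DEX over control. Between DEX + TE and DEX the value was −0.06 with an interval of −0.27 to 0.14.

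Sod1, the cytosolic dismutase, had −0.15 ± 0.11 in DEX over control and −0.21 ± 0.11 in DEX + TE over control. Catalase (Cat), which breaks down hydrogen peroxide in peroxisomes, had 0.19 ± 0.13 and 0.06 ± 0.13. Sod3, the secreted dismutase, had signals of 185, 204 and 230 in the DEX + TE group, 115, 115 and 142 in the DEX group and 69.0, 131 and 139 in the control group. Each DEX + TE array lay above all 6 others. On the log2 scale the difference was 0.73 ± 0.27 in DEX + TE over DEX (limma adjusted p = 0.592) and 0.93 ± 0.27 in DEX + TE over control (adjusted p = 0.213), against 0.19 ± 0.27 in DEX over control. Without the first control array, the DEX + TE over control value was 0.60. With each array centred on its median, every DEX + TE over DEX value was lower, and the median of all genes was −0.22 instead of 0.04.

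Gpx3, the secreted glutathione peroxidase, had the largest positive value of the 43 members in DEX over control. Its signals were 6457, 6189 and 5128 in the DEX + TE group, 9175, 5000 and 6305 in the DEX group and 3279, 2422 and 3212 in the control group. All 6 DEX-injected mice were above all control mice, and the DEX and DEX + TE arrays overlapped. Its log2 fold change was 1.17 ± 0.24 in DEX over control (limma adjusted p = 0.0979) and 1.00 ± 0.24 in DEX + TE over control (adjusted p = 0.153). With a limit of 100 on the group mean the adjusted p in DEX over control was 0.0483, and with a mean-variance trend in the fit it was 0.00372.

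Because Gpx3 had this value, its promoter window is shown (chr11:54902604-54902903, plus strand, 300 bases, RefSeq GRCm38.p6), with the hexamer of the GRE, AGAACA, which here lies on the opposite strand, in capitals.
Gpx3 promoter: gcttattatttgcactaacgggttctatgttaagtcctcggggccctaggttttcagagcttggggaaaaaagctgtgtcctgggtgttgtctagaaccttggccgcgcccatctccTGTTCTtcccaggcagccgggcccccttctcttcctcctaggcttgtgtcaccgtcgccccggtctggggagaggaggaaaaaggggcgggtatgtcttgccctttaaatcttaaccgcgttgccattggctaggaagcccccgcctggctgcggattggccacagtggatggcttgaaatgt
The window held no ARE core and no AP-1 site. The hexamer occurred in 10 of the 43 members with a window (23.3%), against 21.3% of all genes, so that its presence in 1 window says little. The other glutathione peroxidases were nearer 0 in DEX over control, at −0.01 for Gpx1, 0.02 for Gpx4, which protects membrane lipids, and 0.34 for Gpx7 of the endoplasmic reticulum. The peroxiredoxins, thiol peroxidases of which 3 of 6 were measured, had −0.15 (Prdx2), −0.10 (Prdx3) and −0.32 (Prdx4).

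**Figure D2:**
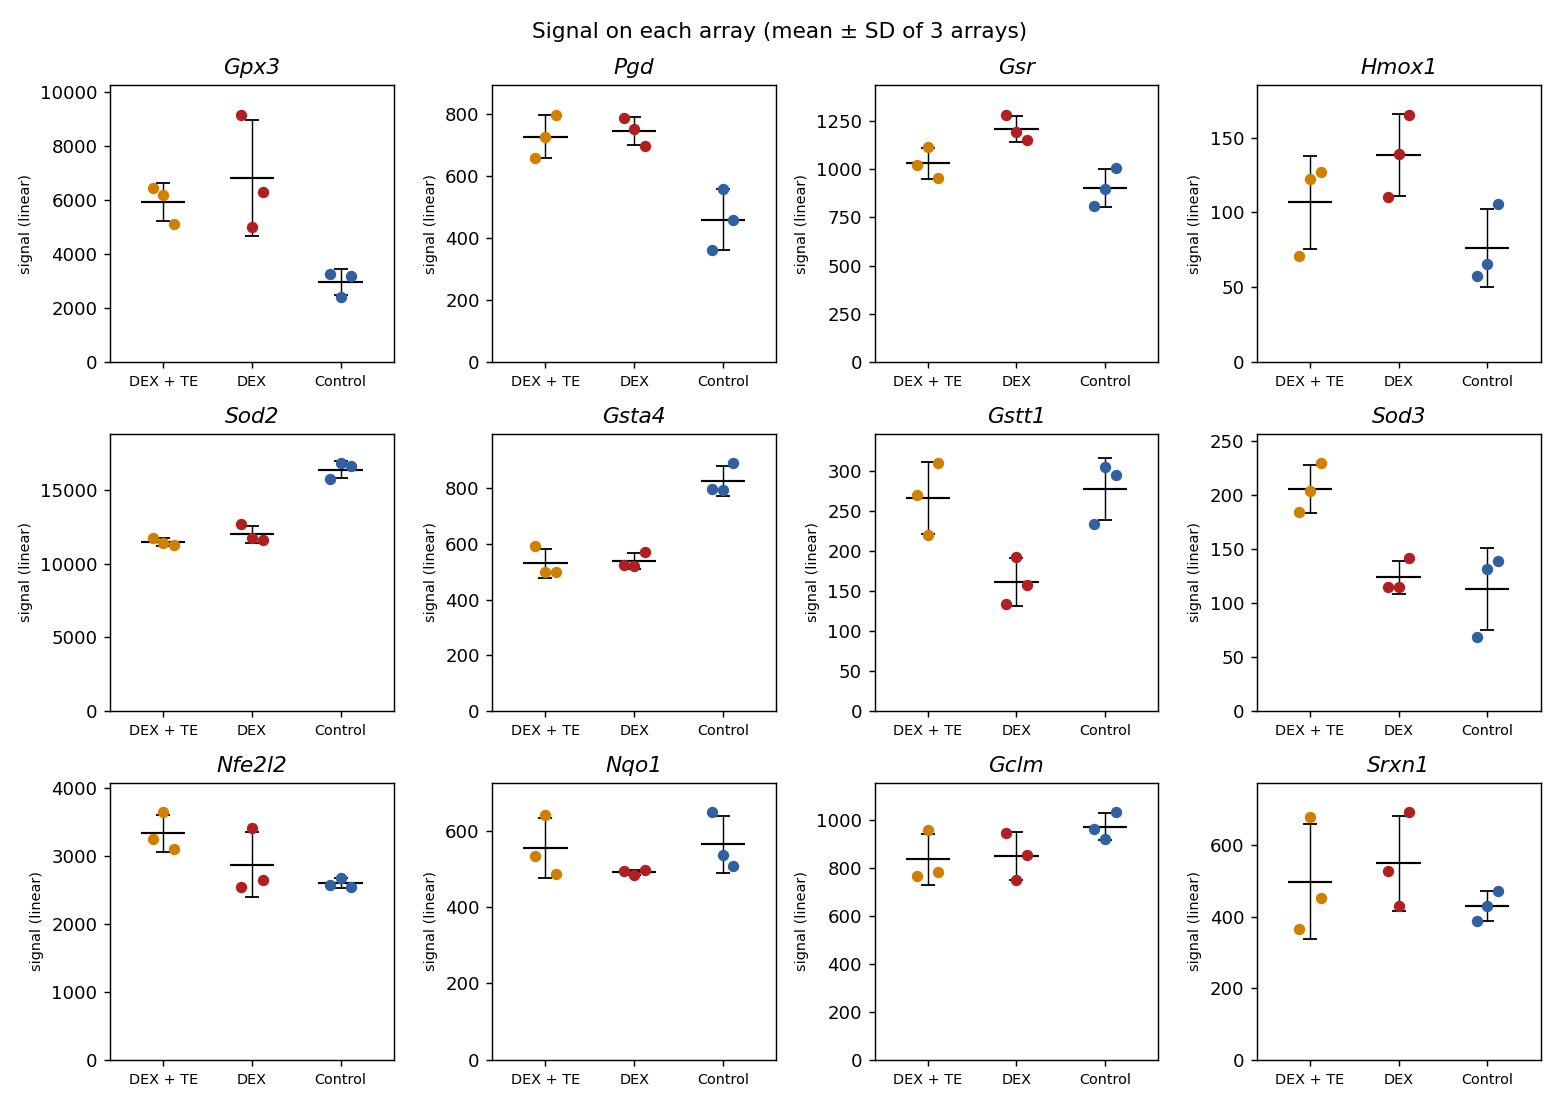
Deposited signal (linear scale, arbitrary units, axes from 0) of 12 members on each array of the DEX + TE, DEX and control groups, with the mean and SD of 3 arrays. Gpx3 and Pgd lay above the control arrays, and Sod2 and Gsta4 below them, on all 6 arrays of DEX-injected mice, while Gstt1 was low on the 3 DEX arrays only and Sod3 high on the 3 DEX + TE arrays only.

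The glutathione transferases, which attach glutathione to electrophiles, mostly stayed near 0, with 2 exceptions among the 8 tested. Gsta4, which acts on the lipid peroxidation product 4-hydroxynonenal, had signals of 591, 501 and 499 in the DEX + TE group, 524, 522 and 572 in the DEX group and 796, 795 and 888 in the control group. All DEX-injected mice lay below all control mice, and the DEX + TE and DEX arrays overlapped. In log2 units the gene differed by −0.64 ± 0.11 in DEX + TE over control (limma adjusted p = 0.074) and −0.61 ± 0.11 in DEX over control (adjusted p = 0.07). With a limit of 100 on the group mean these adjusted p were 0.0343 and 0.0309, and with a mean-variance trend 0.0126 for both.

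Gstt1, a theta-class transferase, had signals of 270, 220 and 310 in the DEX + TE group, 134, 193 and 157 in the DEX group and 234, 305 and 296 in the control group. Each DEX array was below every array of the other groups, which overlapped with each other. For this gene the log2 fold change was 0.73 ± 0.19 in DEX + TE over DEX (limma adjusted p = 0.468) and −0.79 ± 0.19 in DEX over control (adjusted p = 0.139). Centring each array on its median lowered the DEX + TE over DEX value, as it did for every gene. In the list of other glutathione and thioredoxin enzymes, the related Gstt3 had 1.10 in DEX + TE over DEX and −0.80 in DEX over control, and Gstt2 had 0.20 and −1.0, and neither was called. The DEX arrays of Gstt3 were 41.9, 90.8 and 48.8, around the limit of 50, so that its values are not measured sizes. Gstm1, Gstm2, Gstm5, Gstp1, Mgst1 and Mgst3 lay between −0.15 and 0.15 in DEX over control, and transferases of 1 class can share probe sequence.

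Hmox1, heme oxygenase, an inducible NRF2 target that releases iron and biliverdin from heme, was dim on these arrays, with 70.9, 122 and 127 in the DEX + TE group, 111, 139 and 165 in the DEX group and 57.4, 65.4 and 106 in the control group. Every DEX array was above every control array, and the DEX + TE arrays overlapped with both. The log2 fold change was 0.89 ± 0.32 in DEX over control (limma adjusted p = 0.263) and −0.40 ± 0.32 in DEX + TE over DEX (adjusted p = 0.797), with an interval of −1.14 to 0.34. Blvrb, a biliverdin reductase, had signals of 27.5, 75.0 and 100 in the DEX + TE group, 28, 87.7 and 11.7 in the DEX group and 196, 86.3 and 132 in the control group. The DEX arrays overlapped with both other groups, and 2 of the 3 DEX arrays were under 50, so that the fitted −2.09 ± 0.79 in DEX over control (limma adjusted p = 0.29) is not a measured size. Leaving out single arrays moved it between −2.85 and −1.40. Aox1, aldehyde oxidase, and Ephx1, which hydrolyses epoxides, had 0.04 and −0.17 in DEX over control. Fth1, the heavy chain of the iron store ferritin, had −0.20 ± 0.11.

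NADPH supplies both glutathione and thioredoxin reduction. Pgd, the NADPH-forming 6-phosphogluconate dehydrogenase of the pentose phosphate pathway, had signals of 657, 726 and 798 in the DEX + TE group, 787, 752 and 697 in the DEX group and 361, 558 and 459 in the control group. All DEX-injected mice lay above all control mice. On the log2 scale the difference was 0.72 ± 0.17 in DEX over control (limma adjusted p = 0.127) and 0.68 ± 0.17 in DEX + TE over control (adjusted p = 0.163), and the DEX + TE over DEX value was −0.04. Its 4 probe sets were all positive in DEX over control, at 0.41 to 0.72. With a mean-variance trend the adjusted p was 0.0217 in DEX over control and 0.0356 in DEX + TE over control. Tkt, transketolase of the same pathway, had 1101, 1464 and 943 in the DEX + TE group, 1685, 1651 and 1343 in the DEX group and 1068, 925 and 1450 in the control group, with overlapping arrays. Its value was 0.46 ± 0.22 in DEX over control (limma adjusted p = 0.401) and −0.43 ± 0.22 in DEX + TE over DEX. Taldo1, transaldolase, had −0.04 and −0.02.

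Nnt encodes nicotinamide nucleotide transhydrogenase, which, where functional, forms NADPH in mitochondria. Outside the members, Nnt was the only gene of the 5 lists of related genes that was called. Its signals were 2519, 2350 and 2235 in the DEX + TE group, 2699, 2362 and 2703 in the DEX group and 1292, 1566 and 1221 in the control group, with no overlap between DEX-injected and control mice. It rose by 0.93 on the log2 scale in DEX over control (limma adjusted p = 0.0341), and had 0.81 in DEX + TE over control (adjusted p = 0.0593). A second of its 3 probe sets gave 1.06 in DEX over control with the same adjusted p, and the third gave 0.91 and did not pass (adjusted p = 0.601). C57BL/6J mice are known to carry a deletion within Nnt, and neither its protein nor NADPH was measured on these arrays. In DEX over control 1 of the 24 tested genes of its list was called, against 0.6% of all genes tested.

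Of 20 other NRF2 targets, 18 were tested and 0 were called in any comparison, and the same was true of 12 selenoproteins and 9 oxidant-producing enzymes. At an unadjusted limma p under 0.05, 2 of the 18 targets were higher and 1 was lower in DEX over control, where 6.16% and 9.15% of all genes were. In DEX + TE over control 3 were higher and 2 lower (7.64% and 6.78% of all genes), and in DEX + TE over DEX 0 were either. Slc7a11, the cystine importer that feeds glutathione synthesis, had 50.7, 95.1 and 46.1 in the DEX + TE group, 52.4, 64.8 and 27.8 in the DEX group and 6.45, 14.7 and 12.1 in the control group, which were all under 50. No fold is given, as the DEX arrays lay around the limit. Ugdh, which forms UDP-glucuronic acid, had 0.45 in DEX over control and Pparg −0.46, neither called. Selenon, a selenoprotein of the endoplasmic reticulum, had signals of 92.3, 128 and 126 in the DEX + TE group, 73.3, 27.8 and 74.3 in the DEX group and 116, 126 and 117 in the control group. Its DEX arrays were below all others, at −1.16 in DEX over control (limma adjusted p = 0.223) and 1.10 in DEX + TE over DEX (adjusted p = 0.568). Dio2, a deiodinase, had 0.71 and Selenop, the selenium carrier, −0.37 in DEX over control (limma adjusted p = 0.582 and 0.124). The control arrays of Dio2 were 26.4, 110 and 48.4, around the limit of 50, so that its value is not a measured size. Among the oxidant sources, xanthine dehydrogenase (Xdh) had −0.74, the NADPH oxidase subunit Cybb −0.49 and its regulator Rac2 −0.38 in DEX over control, with overlapping arrays (limma adjusted p = 0.36, 0.485 and 0.653).

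Members with and without an ARE core in the window had medians close to each other. An ARE outside the windows, or with letters other than TGACNNNGC, was not searched, so this split cannot separate members under NRF2 control from others. Gclc, Gsr, Gsta4, Sod3 and Hmox1 had no window and are in neither group. The median of the 8 tested members with a core was 0.03 in DEX over control, −0.04 in DEX + TE over DEX and −0.02 in DEX + TE over control. For the 30 tested members with a window and no core it was −0.06 in each of the 3 comparisons. Among the 8 sequences shown, Pgd and Nfe2l2 had the highest values in DEX + TE over control, at 0.68 and 0.36, and Gclm the lowest, at −0.22. The Pgd core lay after the start and in only 1 of the windows of Pgd.

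Members with several tested probe sets show how far a level rests on the probes. Of 24 such members, all probe sets had the same sign in 13 in DEX over control, 15 in DEX + TE over DEX and 11 in DEX + TE over control. Sod2, Pgd, Gclm, Gss and Keap1 were among those with 1 sign in DEX over control, and Srxn1, Gsr, Txnrd1, Cat and Sod1 among those with both.

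**Figure D3:**
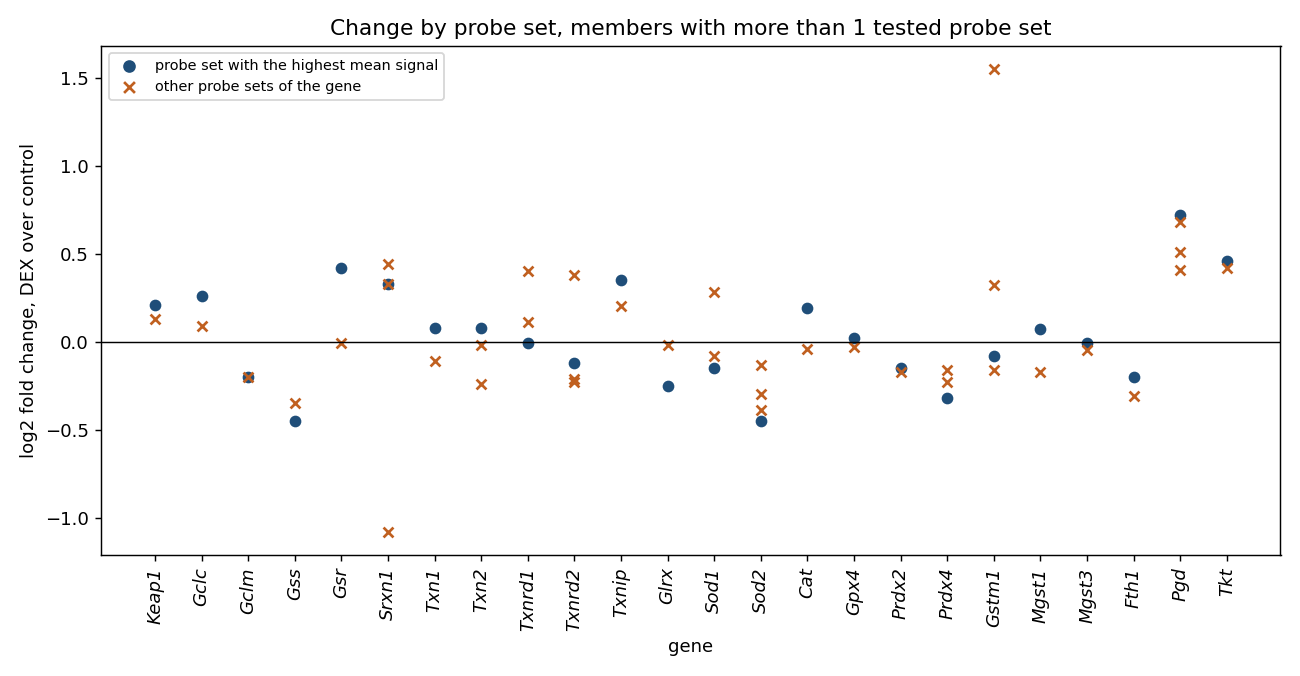
Log2 fold change in DEX over control of each tested probe set of the 24 members with more than 1, with circles for the probe set used in the text and crosses for the others. All 4 Pgd probe sets lie above 0 and all 4 Sod2 probe sets below it, whereas the 2 of Gsr differ.

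The scaling of the arrays bears on the DEX + TE comparisons. The deposited signals had array medians of 84.7 to 95 in the DEX + TE group, 71.3 to 77.7 in the DEX group and 76.0 to 86.2 in the control group. With each array centred on its median, the median of the members was −0.31 in DEX + TE over DEX, where that of all genes was −0.22. Centring subtracts 1 value from every gene of an array. The distance of the members from all genes, 0.09 below, was therefore the same with either scaling by construction. At an unadjusted limma p under 0.05, 1 member was then higher (2.33%, against 1.9% of all genes with the same scaling) and 17 were lower (39.5%, against 15.6%) in DEX + TE over DEX, whereas 2 were higher and 0 lower on the deposited scale. Small member values between DEX + TE and DEX thus changed sign with the scaling. The members were bright genes, at a median signal percentile of 82.9 among the genes tested. Whether this bears on the 17 lower members was not tested.

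**Figure D4:**
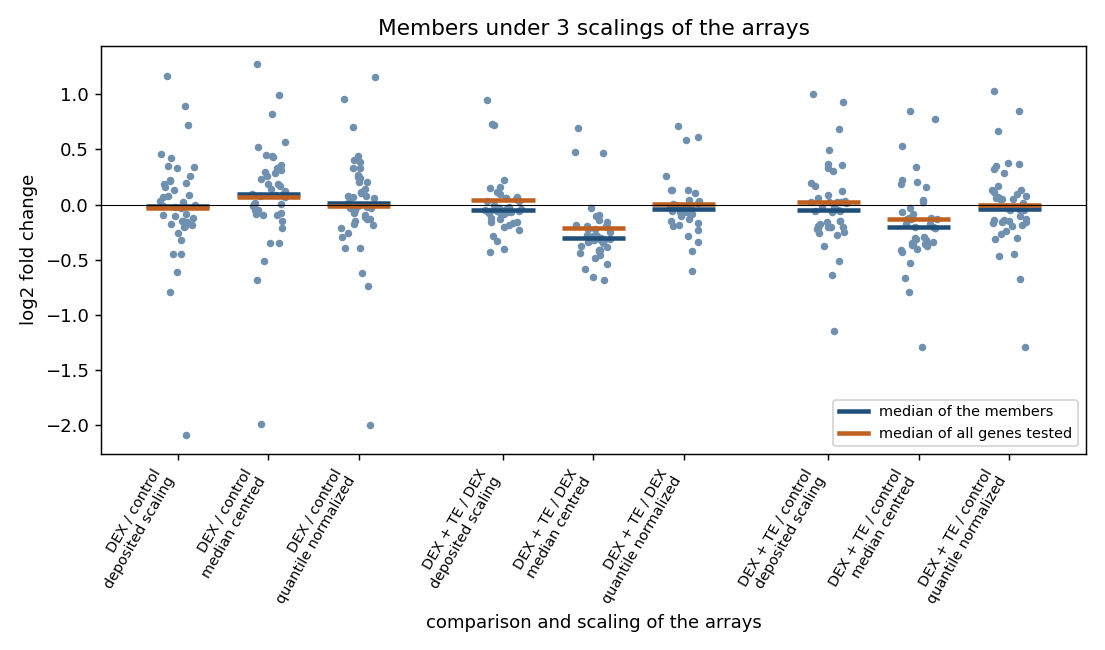
Log2 fold change of the 43 tested members in each comparison with the deposited scaling, with each array centred on its median and after quantile normalization, with the median of the members and of all genes tested. Centring moves every gene of a comparison by the same amount, which takes the medians of members and all genes to −0.31 and −0.22 in DEX + TE over DEX.

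In bulk muscle, fewer cells of a type and less RNA per cell cannot be told apart, so the markers of cells that could move with the members were read on the same arrays. The 8 muscle fiber markers were present on all arrays, with a summed signal of 428362 to 470300 in the DEX + TE group, 350058 to 440295 in the DEX group and 435108 to 624454 in the control group. Their median log2 fold change was −0.44 in DEX over control and −0.22 in DEX + TE over control, with 0 of 8 called, against 0.6% and 0.454% of all genes. Sod2 and Gsta4 were lower in the same comparisons, and the part of muscle fibers in their values was not tested. Adipocyte markers, of which 6 of 8 were measured, had summed signals of 20545 to 22974 in the DEX + TE group, 17062 to 20221 in the DEX group and 21188 to 24971 in the control group, and no measured marker of the list was under 50 on all arrays. Adipoq, the adipocyte hormone adiponectin, had 1165, 2050 and 1761 in the DEX + TE group, 868, 721 and 905 in the DEX group and 268, 371 and 441 in the control group, and rose by 2.19 on the log2 scale in DEX + TE over control (limma adjusted p = 0.0261). Of the 6 adipocyte markers, 2 were called in that comparison (against 0.454% of all genes), Adipoq and Retn, the hormone resistin, at 1.69. Cidec and Lep had 1.73 and 1.31 with no overlap and were not called (limma adjusted p = 0.112 and 0.0626), and Fabp4 and Adig had −0.21 and −0.30. The values of Gpx3 and Sod3 in DEX + TE over control had the same sign as those of Adipoq, Retn, Cidec and Lep, and the opposite sign to those of Fabp4 and Adig. Sod3 had 0.73 and Gpx3 −0.17 in DEX + TE over DEX, where Adipoq had 0.96. The part of adipocytes in either gene was not tested.

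The 10 fibroblast markers had summed signals of 25424 to 27969 in the DEX + TE group, 17826 to 20458 in the DEX group and 23490 to 34253 in the control group. Col1a1, a collagen chain, fell by 1.85 and Pcolce, a collagen-processing helper, fell by 1.24 on the log2 scale in DEX over control. These 2 of the 10 passed the test, against 0.6% of all genes. By value 9 of the 10 were lower in that comparison and 1 was higher, at 0.73. Gstt1 was lowest in the DEX group, as were the summed signals of these markers, and the part of fibroblasts in it was not tested. The 8 measured macrophage markers had sums of 2327 to 2574 in the DEX + TE group, 1489 to 2095 in the DEX group and 1595 to 2611 in the control group. Macrophages express Hmox1, whose mean signal was highest in the DEX group. In DEX over control 7 of these 8 markers were lower by value and 1 was higher, and the arrays of all 8 overlapped between the groups. Of 8 neutrophil markers 7 were measured, with sums of 513 to 1149 in the DEX + TE group, 558 to 947 in the DEX group and 327 to 443 in the control group, and 4 were tested. The neutrophil proteins S100a8 and S100a9 had 1.74 and 2.29 in DEX over control (limma adjusted p = 0.112 and 0.0946), with no overlap, and the control arrays of S100a9 were all under 50, so that its value is not a measured size. In that comparison 3 of the 4 tested neutrophil markers were higher by value and 1 was lower, at −0.49. Hmox1, Gpx3 and Pgd were higher by value in the same comparison. The part of macrophages and neutrophils in these members was not tested.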

How the data were processed

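The authors deposited linear intensities of 45101 probe sets on 9 arrays. Every array had a mean of 500 after 2% was trimmed from either end. Robust Multi-array Average, the summary in the methods, would have given log2 values, and the program behind the deposited ones was not given in the sources read here. From each mouse 250 ng RNA was labelled. Of 45037 probe sets left after 64 controls, 34945 had 1 symbol, 932 several and 9160 none, and 34741 of those with 1 symbol were matched to a RefSeq gene. Some probe sets (suffix x or s) can bind similar genes. They include those used for Pgd, Tkt, Gstm1, Gpx4, Gclc and Srxn1, and Nnt.

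Intensities were converted to log2 without offset. Probe sets with a group mean of at least 50 (29269) were fitted with limma 3.58.1 in R 4.3.3, lmFit and eBayes with 3 group means. Rank Product, the methods' test and here an alternative, with 100 permutations, used Python 3.11.15, numpy 2.4.6 and pandas 2.3.3. It was not the main test because, in an earlier analysis, it called many probe sets in unchanged simulated data. Figures used matplotlib 3.10.9. Both methods were tested on simulated data. The number of arrays limits the precision, and the deposited intensities give no depth.

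The members and lists were chosen with earlier results of these data known. Members named with all arrays were the 3 highest and 3 lowest per comparison, 8 regulators and NRF2 targets fixed by name and, chosen after their values were seen, Gsr and Gss. Of other lists, called genes and up to 3 per list with the largest difference in DEX over control were named. Gstt3 and Gstt2 fall under that rule. Alternatives covered scaling, filter, offset, variance model, arrays fitted, replicate block, probe sets per gene and leaving out each array.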

Additional observations from a re-analysis of the deposited data

How the results depend on the processing

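The number of members called was 2 (Gpx3 and Gsta4) in DEX over control and 1 (Gsta4) in DEX + TE over control with a group mean of at least 100. With a mean-variance trend it was 3 (Gpx3, Gsta4 and Pgd) in each of these. The share of all genes called under these 2 settings is not given here, so these counts cannot be set against a background. Fewer probe sets tested or a different variance model is what these settings change. With arrays centred on their medians, the member median was 0.09 in DEX over control (all genes 0.07), −0.31 in DEX + TE over DEX (all genes −0.22) and −0.20 in DEX + TE over control (all genes −0.13). All other settings left 0 members called and the medians within the spread between arrays, leaving out single arrays included, with 0 called each time and medians of −0.03 to 0.00, −0.07 to −0.02 and −0.08 to −0.03 in these comparisons.

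Same-numbered arrays of different groups did not deviate together (r between −0.021 and 0.048 over 9 pairs). No pairing by number was detected, although the labels do not say whether same-numbered mice were handled together. With the replicate block 0 members were called in each comparison, and the medians were −0.01, −0.05 and −0.05.

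Uncalled members changed sign as follows. Centring shifts every gene of a comparison by the same amount, and for the other settings the cause was not tested. Centring gave −0.03 for Nfe2l2, −0.09 for Nqo1 and −0.20 for Gclc in DEX + TE over DEX, −0.03 for Keap1 in DEX + TE over control and 0.10 for Txnrd1 in DEX over control. The mean of all probe sets of a gene gave −0.06 for Gclc, 0.02 for Gclm and 0.04 for Txnrd1 in DEX + TE over DEX, −0.09 for Srxn1 and 0.21 for Txnrd1 in DEX + TE over control, and 0.17 for Txnrd1 in DEX over control. Leaving out single arrays gave ranges across 0 for Gclc (−0.16 to 0.20), Gclm (−0.13 to 0.06) and Srxn1 (−0.41 to 0.04) in DEX + TE over DEX, Nqo1 (−0.14 to 0.08) and Srxn1 (−0.08 to 0.37) in DEX + TE over control, and Txnrd1 (−0.06 to 0.09) in DEX over control.

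Over all alternatives the limma adjusted p in DEX over control ran from 0.00372 to 0.244 for Gpx3, 0.0126 to 0.222 for Gsta4 and 0.0217 to 0.292 for Pgd. Signals near 50, as of Blvrb and Hmox1, limit what these arrays resolve.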
